A study of Mus musculus with 23 samples.

Results

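The usual pairing of sex chromosomes and gonads in mice was examined in the hippocampus by setting XY animals with testes against XX animals with ovaries. The comparison took every library labelled XYM (n = 6) and every library labelled XXF (n = 5), together 11 of the 23 libraries of the series. Each library came from a different animal of the FCG model, kept on a C57Bl/6J background and collected at about 12 months of age. FCG mice lack Sry, the gene that starts testis formation, on their Y chromosome, and some carry it instead as an autosomal transgene. XYM animals therefore had the Y without Sry plus the Sry transgene and testes, while XXF animals had 2 X chromosomes, ovaries and no transgene. XX animals with the transgene and testes (XXM, n = 6) and XY animals without it and with ovaries (XYF, n = 6) are used only to show how a difference divides between chromosomes and gonad. The mice came from revived frozen embryos, and pups were caged after weaning by the look of their genitalia, so cage type cannot be told apart from gonad. The Sry transgene cannot be told apart from the gonad either, and between XYM and XXF both go together with the sex chromosomes.

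In XX cells most genes of 1 X chromosome are silenced by the non-coding RNA Xist, and a small set of X genes escapes this silencing. Several of the escapees have a surviving relative on the Y, and these X–Y pairs encode regulators of translation, RNA unwinding and histone demethylation that are thought to be sensitive to dose. Ovaries and testes act on the brain through steroid hormones, whose receptors are present in the hippocampus, a structure needed for memory and for the control of stress hormones.

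The table held estimated counts for 13766 genes, of which 13271 were autosomal, 486 X-linked and 5 Y-linked, and 4 had no chromosome. Totals over these genes ran from 10257790 to 36078235 in the 11 libraries, a ratio of 3.52. Spearman correlations between an XXF and an XYM library were 0.986 to 0.995. No pair of libraries within XXF or within XYM agreed to within sampling noise (lowest chi-square per gene 4.3), so each counted as 1 replicate. The summed level of 18 markers of hippocampal subfields was 1449 to 1608 CPM (counts scaled to the size of the library) in XXF and 1452 to 1525 CPM in XYM, with all 18 measured, among them Prox1 of dentate granule cells. Choroid plexus markers stood apart in 1 library of each group. Ttr, the transthyretin made by that tissue, was at 1670 CPM in XXF replicate 1 against 34.7 to 120 CPM in the other XXF libraries, and at 2386 CPM in XYM replicate 1 against 19.1 to 152 CPM in the other XYM libraries. Among the side groups, XYF replicate 4 had Xist at 94.1 CPM, where the other XYF libraries had 0.508 to 2.79 CPM. In bulk tissue, fewer cells of a type and less RNA per cell cannot be told apart.

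Xist and the Y genes were examined first, as a check of the labels. Xist was at 1468, 1353, 1302, 1405 and 1095 CPM in the XXF libraries. In XYM its lowest, median and highest levels were 0.938, 1.29 and 2.86 CPM. All 11 libraries therefore matched their chromosome labels, and Xist fell by 9.59 on the log2 scale (SE 0.93, adjusted p = 2.28e-07).

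The number of genes called was small with edgeR and larger with some other tools. With edgeR's quasi-likelihood test and Benjamini-Hochberg adjustment over all genes, 18 of 13766 genes passed an adjusted p of 0.05 (0.131%), 13 of them higher (0.0944%) and 5 lower (0.0363%) in XYM. Those 18 comprised 4 of the 5 Y-linked genes (80%), 8 of the 486 X-linked genes (1.65%; 6 higher, 1.23%, and 2 lower, 0.412%) and 6 of the 13271 autosomal genes (0.0452%). An unadjusted p under 0.05 was reached by 1395 genes (10.1%), where 688 would be expected if no gene differed. The median autosomal difference was −0.00 on the log2 scale, with quartiles at −0.08 and 0.08 and a median SE of 0.09. Only 106 autosomal genes differed by more than 1.5-fold and 12 by more than 2-fold. The number of autosomal calls depended on single animals and on the tool. It was 2, 3, 1, 3 and 2 without XXF replicates 1 to 5, then 1, 2 and 3 without XYM replicates 3, 4 and 5, but 23 (4 higher, 19 lower) without XYM replicate 6. DESeq2 called 40 autosomal genes and 54 genes in all. With sample quality weights, limma voom called 104 and 123.

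The Y-linked genes came first by p. Eif2s3y, which encodes a subunit of the translation initiation factor eIF2, was at 41.6, 50.9 and 57.1 CPM (lowest, median, highest) in XYM. In XXF it was at 0.0444, 0, 0.274, 0 and 0 CPM. Ddx3y, an RNA helicase gene, was at 54.8, 60.8 and 73.2 CPM in XYM and at no more than 0.219 CPM in any XXF library. The highest levels of both in XXF were in replicate 3. Kdm5d, a histone H3 lysine 4 demethylase gene, ran from 28.4 to 39.5 CPM in XYM and did not exceed 0.110 CPM in XXF. Uty, the Y relative of the demethylase gene Kdm6a, ran from 16.2 to 23.7 CPM in XYM and did not exceed 0.110 CPM in XXF. All 4 rose (adjusted p between 2.21e-18 and 4.08e-17), and with XXF near 0 their fitted fold changes have no useful size. Erdr1, which lies in the region where X and Y pair and is listed on the Y in the table, had a log2 difference of −0.71 (SE 0.31, adjusted p = 0.429). Its level in XYM replicate 6, 42.8 CPM, was above every XXF library, and without that library the adjusted p was 0.0259.

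The X and Y copies of a pair have drifted apart in sequence, which lets reads be assigned to 1 of them. The first 120 coding bases of the most alike and the third most alike pair are shown for this reason, from the start codon, in the GENCODE annotation of GRCm38, with the bases that differ within a pair in capitals.
Eif2s3x: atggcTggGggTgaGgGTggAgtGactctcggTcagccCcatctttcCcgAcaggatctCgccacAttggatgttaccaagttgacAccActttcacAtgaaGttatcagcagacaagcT
Eif2s3y: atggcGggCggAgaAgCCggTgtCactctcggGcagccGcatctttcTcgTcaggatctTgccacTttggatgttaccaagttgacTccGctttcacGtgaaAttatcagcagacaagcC
Kdm5c: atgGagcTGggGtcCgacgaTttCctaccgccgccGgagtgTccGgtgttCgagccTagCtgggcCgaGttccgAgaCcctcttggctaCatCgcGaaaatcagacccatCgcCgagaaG
Kdm5d: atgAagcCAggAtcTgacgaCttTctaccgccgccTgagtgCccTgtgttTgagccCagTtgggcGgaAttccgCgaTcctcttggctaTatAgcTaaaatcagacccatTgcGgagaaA
The stretches hold 19 differences between Eif2s3x and Eif2s3y and 23 between Kdm5c and Kdm5d. Over the whole coding sequence, identity was 86.3% for Eif2s3x and Eif2s3y, 83.9% for Ddx3x and Ddx3y, 75.4% for Kdm5c and Kdm5d and 70.2% for Kdm6a and Uty. No window of 100 coding bases, the length of a read, was identical between the copies of any pair.

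On the X side of these pairs, 1 of 8 measured partners passed the test, while DESeq2 called 3 and limma voom with sample quality weights 4. Of all X-linked genes, 0.412% were called lower. Eif2s3x was at 206, 210, 221, 212 and 218 CPM in XXF, and at 132, 142 and 158 CPM (lowest, median, highest) in XYM. The groups did not overlap, and Eif2s3x fell by 0.57 (SE 0.06, adjusted p = 4.27e-07). The demethylase genes Kdm5c and Kdm6a did not overlap between the groups either, but missed the threshold. Kdm5c was at 89.0, 88.6, 77.7, 93.2 and 93.4 CPM in XXF and at 60.8 to 75.9 CPM in XYM (log2 difference −0.33, SE 0.07, adjusted p = 0.0764). Kdm6a was at 53.1, 50.2, 48.1, 54.0 and 52.2 CPM in XXF and at 35.4 to 43.5 CPM in XYM (−0.36, SE 0.08, adjusted p = 0.0764). Kdm5c and Kdm6a were each called in 3 of 23 alternatives (lowest adjusted p 0.00665 and 0.00097), and Ddx3x in 1 (0.0275). Over all X-linked genes, 14 (2.88%) did not overlap between the groups. For Ddx3x the difference was −0.25 (SE 0.07, adjusted p = 0.223), and 1 XYM library lay within the XXF range. The other partners differed less. Usp9x, a deubiquitinase gene, had a difference of 0.02, the ubiquitin-activating enzyme gene Uba1 −0.00, the RNA-binding protein gene Rbmx 0.08 and the transcription factor gene Zfx 0.18, with adjusted p of 0.536 or more. The signs for Usp9x and Uba1 changed between alternatives.

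**Figure D1:**
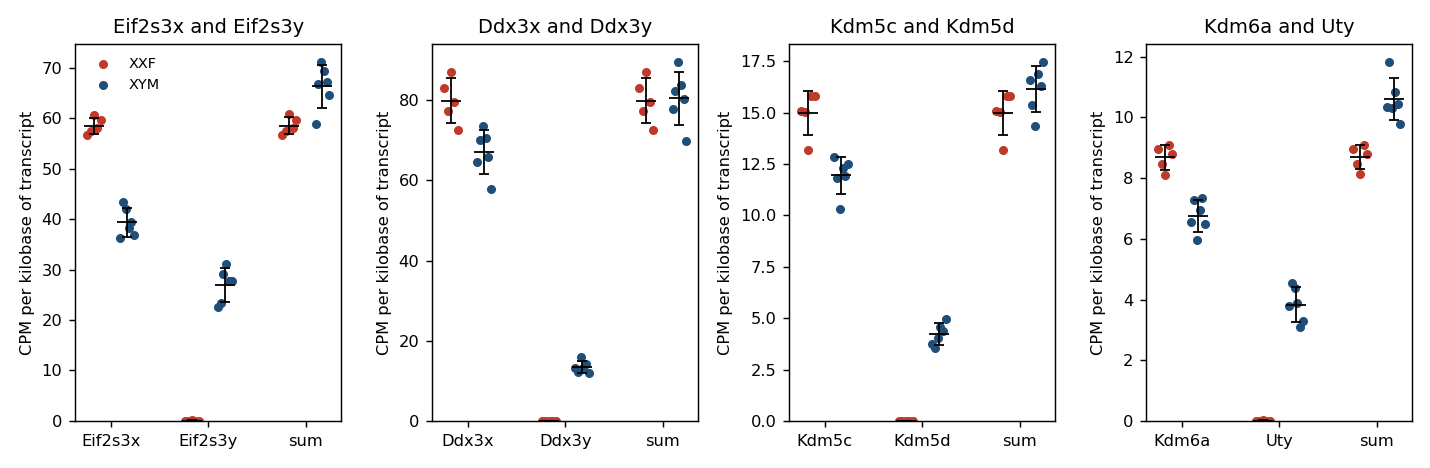
Levels in CPM per kilobase of transcript of the X copy, the Y copy and their sum for 4 X–Y pairs. Points are libraries (XXF n = 5, XYM n = 6), and bars give mean ± SD. The X copy is lower in XYM in each panel and the Y copy is near 0 in XXF. The sum is higher in XYM for Kdm6a plus Uty, with no overlap.

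In the side comparisons, Eif2s3x differed by −0.63 between XYM and XXM (adjusted p = 2.17e-08) and by −0.60 between XYF and XXF (adjusted p = 2.19e-07). With the chromosomes held, it differed by 0.02 between XYM and XYF and by 0.06 between XXM and XXF (adjusted p of 0.797 or more). Kdm6a differed by −0.51 between XYM and XXM (adjusted p = 0.000722) and by −0.52 between XYF and XXF (adjusted p = 0.000811), while both gonad steps were positive, 0.16 and 0.14, and not called. Kdm5c differed by −0.30 between XYM and XXM (adjusted p = 0.146, not called) and by −0.41 between XYF and XXF (adjusted p = 0.00374), with gonad steps of 0.09 and −0.03, not called. Ddx3x differed by −0.34 between XYM and XXM (adjusted p = 0.0494), a call lost in 15 of 22 alternatives (adjusted p up to 0.190), and by −0.23 between XYF and XXF (adjusted p = 0.471). The gonad steps of Ddx3x were −0.02 and 0.09, not called. The difference of Kdm6a between XYM and XXF, −0.36, was thus nearer to 0 than either step between XY and XX, a relation that was not tested. The fit's test of the sum of both XY minus XX steps called Ddx3x at −0.57 (adjusted p = 0.00413) and Kdm5c at −0.71 (adjusted p = 0.000127), as well as Eif2s3x and Kdm6a. In that test 0.283% of all genes were called. These comparisons share groups with one another and are not independent. They called 16 genes (0.116%) for XYM against XXM, 40 (0.291%) for XYF against XXF and 31 (0.225%) for XYM against XYF. For XXM against XXF edgeR called 0 (0%), with 1061 at an unadjusted p under 0.05, and DESeq2 called 1. All 51 side differences called among the named genes were also called, in the same direction, without XYF replicate 4.

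Adding the Y copy to the X copy gave a sum per kilobase of transcript for each pair. For Kdm6a plus Uty the sum was 8.96, 8.45, 8.13, 9.10 and 8.80 CPM per kilobase in the XXF libraries, and ran from 9.78 to 11.8 in XYM. The groups did not overlap, and the XYM mean was 122% of the XXF mean (exact permutation test, 2-sided, p = 0.00433, the smallest that 462 assignments allow, adjusted over 4 pairs 0.0173). Uty made up 36.1% of the sum in XYM. For Ddx3x plus Ddx3y the sum in XYM was 80.5 ± 6.62 CPM per kilobase (SD, n = 6) against 79.9 ± 5.59 in XXF (SD, n = 5), 101% (exact permutation test, p = 0.87). Ddx3y gave 16.7% of that sum. For Kdm5c plus Kdm5d the XYM mean was 108% of the XXF mean (exact permutation test, p = 0.113, adjusted 0.151), and with coding length in place of transcript length it was 118% (adjusted p = 0.0173). For Eif2s3x plus Eif2s3y it was 113% (exact permutation test, p = 0.013, adjusted 0.026). With coding length it was 90.4% (exact permutation test, p = 0.00866, adjusted 0.0173), a difference in the opposite direction. The direction for that pair thus depended on the length used, because its listed transcripts differ much in length (3647 bases for Eif2s3x, 1836 for Eif2s3y). With transcript length, leaving out XXF replicate 1, 2 or 4 brought that pair's adjusted p to 0.0571 (exact permutation test). Leaving out XYM replicate 3 brought that of Kdm5c plus Kdm5d to 0.0317. This test was chosen after the values were seen.

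Other genes known for escape from X inactivation missed the adjusted threshold, and 5530601H04Rik and Bgn had an unadjusted p under 0.05. 5530601H04Rik, a non-coding RNA gene, was at 12.4, 11.1, 12.6, 11.6 and 10.5 CPM in XXF and at 8.0 to 11.6 CPM in XYM (−0.34, SE 0.12, adjusted p = 0.318). Bgn, which encodes the matrix proteoglycan biglycan, differed by −0.48 (SE 0.22, adjusted p = 0.438), with 24.5 CPM in the choroid-rich XXF replicate 1 and 8.95 to 12.8 CPM in the other XXF libraries. Car5b, Shroom4 and Mid1 had differences of 0.06, −0.14 and 0.02.

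Towards the distal end of the X, neighbouring genes formed the one block of higher expression. In background, the Y chromosome of C57Bl/6J FCG stock has been reported to carry a translocated copy of a distal X segment; genome structure was not examined here. The list, chosen with that report known, held 7 measured genes between positions 167207094 and 169320343 (mm10), with no other measured gene among them. All 7 were higher in XYM, and 6 of them were called. Of all X-linked genes, 58.4% were higher and 1.23% were called higher. Frmpd4, which encodes a scaffold protein of dendritic spines, was at 136, 127, 138, 140 and 148 CPM in XXF and at 273, 278 and 323 CPM (lowest, median, highest) in XYM. The groups were far apart, a log2 difference of 1.06 (SE 0.08, adjusted p = 5.64e-10), or 2.08-fold. Msl3, a chromatin gene related to the dosage compensation complex of flies, was at 23.6, 22.5, 27.8, 21.4 and 23.8 CPM in XXF and 41.1, 45.0 and 48.9 CPM in XYM, without overlap (0.92, SE 0.07, adjusted p = 7.29e-10). Hccs, which attaches haem to cytochrome c, was at 19.2 to 26 CPM in XXF and 38.3 to 45.1 CPM in XYM (0.86, SE 0.08, adjusted p = 5.73e-08).

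Prps2, an enzyme gene of nucleotide synthesis, was at 33.6 to 40.4 CPM in XXF and 66.1 to 98.1 CPM in XYM (1.03, SE 0.12, adjusted p = 7.98e-06). Tlr7, the endosomal sensor of single-stranded RNA, was a low-level gene: 3.11, 3.84, 4.50, 3.61 and 3.62 CPM in XXF, and 6.39, 7.22 and 10.7 CPM (lowest, median, highest) in XYM. Every XYM library was above every XXF library (1.06, SE 0.16, adjusted p = 0.000464). Tmsb4x, which encodes the actin-binding peptide thymosin beta 4, rose least, by 0.49 (SE 0.10, adjusted p = 0.0318), from 566 to 735 CPM in XXF to 683 to 1104 CPM in XYM. Its groups overlapped, and its call was lost in 11 of 23 alternatives (adjusted p up to 0.144). Arhgap6, a GTPase-activating protein gene, was not called (0.81, SE 0.25, adjusted p = 0.258), with 5.02 to 10.3 CPM in XXF and 9.24 to 21.9 CPM in XYM. No rise was called beyond the list, whose nearest measured neighbours, Egfl6 and Mid1, had differences of 0.14 and 0.02 (adjusted p of 0.873 or more).

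Of the 7 genes of the block, 6 were called in both side comparisons of XY with XX animals. Of all genes, 0.116% were called between XYM and XXM and 0.291% between XYF and XXF. Arhgap6 was called in neither, at 0.80 between XYM and XXM (adjusted p = 0.865) and 1.08 between XYF and XXF (adjusted p = 0.0794). The fit's test of the sum of both steps called Arhgap6, at 1.88 (adjusted p = 0.00631), and did so in all 22 alternatives. No gonad step of the 7 genes was called. Frmpd4 differed by 0.92 between XYM and XXM and by 0.94 between XYF and XXF (adjusted p = 2.23e-09 and 5.56e-09). The gonad steps of Frmpd4 were 0.12 and 0.13 and were not called. Tlr7 differed by 0.88 between XYM and XXM and by 1.25 between XYF and XXF (adjusted p = 0.00153 and 2.58e-05), and by −0.19 and 0.18 in the gonad steps, which were not called.

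**Figure D2:**
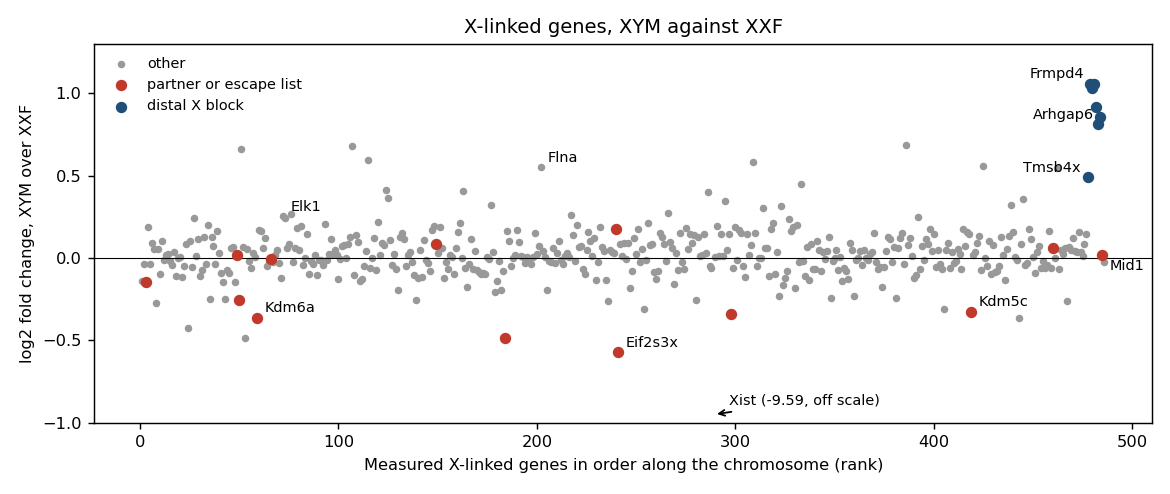
Log2 fold change of XYM over XXF for the 486 measured X-linked genes, in order along the chromosome. Blue points are the 7 genes of the distal block, between 0.49 and 1.06, and red points are X–Y partners and other escape genes; Xist, at −9.59, lies off the scale and is marked by an arrow. Grey points are the 465 other genes, around 0.

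The rest of the X chromosome lay near 0, with more genes higher than lower. Of all X-linked genes 58.4% were higher in XYM, beside 49.9% of autosomal genes, a difference that was not tested. Of the 465 X-linked genes outside the block and the escape lists, 272 were higher and 193 lower in XYM, with a median of 0.02, and edgeR called 0. An unadjusted p under 0.05 was reached by 38 of them (8.17%, against 10.1% of all genes). DESeq2 called 1 and limma voom with sample quality weights 4. The smallest p belonged to Elk1, a transcription factor gene that partners serum response factor, at 0.25 (SE 0.07, adjusted p = 0.163), and Gpr34, a receptor gene of microglia, at −0.49 (SE 0.13, adjusted p = 0.191).

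Among autosomal genes, 3 were called higher and 3 lower in XYM (0.0226% of autosomal genes each). Mylk, Tdo2 and Jph1 rose, while Grb7, Igfbp6 and Kcnk3 fell. The 4 next by p, Cnn2, Fam20c, AI836003 and Syt2, had adjusted p of 0.0527 to 0.0764. None of these 10 overlapped between the groups, as was the case for 193 autosomal genes (1.45%) and for 211 of all genes (1.53%). Ranking by p favours genes whose groups are apart, so the lack of overlap adds nothing to the tests.

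**Figure D3:**
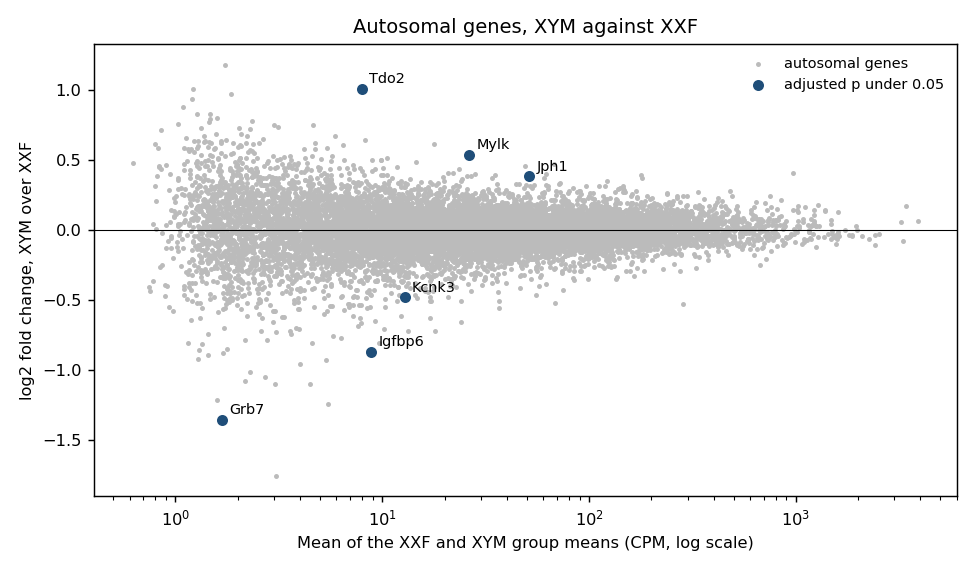
Log2 fold change of XYM over XXF against mean level (CPM, log scale) for the 13271 autosomal genes. Blue points are the 6 with an adjusted p under 0.05. They range from −1.36 (Grb7) to 1.01 (Tdo2), and most genes lie close to 0.

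Mylk (chr16:34784950-35002434, mm10) encodes myosin light chain kinase, which drives contraction of smooth muscle and non-muscle actomyosin. It was at 22.5, 19.3, 21.7, 22.8 and 20.8 CPM in XXF and at 28.4, 30.6 and 36.3 CPM (lowest, median, highest) in XYM. All XYM libraries were above all XXF libraries. It rose by 0.54 (SE 0.08, adjusted p = 0.000655), or 1.45-fold, and was called under all 23 alternatives (adjusted p up to 0.00613). Between XYM and XXM it differed by 0.50 (adjusted p = 0.000722) and between XYF and XXF by 0.51 (adjusted p = 0.00102). With the chromosomes held it differed by 0.03 and 0.04, neither called. The fit's test of the sum of both chromosome steps gave 1.01 (adjusted p = 1.79e-06). It equals the difference of XYM minus XXF from XXM minus XYF, and called 0.283% of all genes. Being built from the chromosome steps just given, it adds no separate evidence to them.

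Cnn2 (chr10:79988600-79995400), the gene of the actin-binding protein calponin 2, was at 6.66, 6.29, 7.13, 5.23 and 7.16 CPM in XXF and 7.54, 10.5 and 11.6 CPM in XYM. It missed the threshold (0.64, SE 0.14, adjusted p = 0.0527), and passed it in 6 of 23 alternatives. It was called in both comparisons of XY with XX at a fixed gonad, at 0.71 with testes (adjusted p = 0.00614) and 0.77 with ovaries (adjusted p = 0.0038). The sum of both chromosome steps was 1.49 in the fit's test (adjusted p = 1.74e-05). Being built from these steps, it adds no separate evidence to them. The gonad steps were −0.13 and −0.07.

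The promoters of Mylk and Cnn2 are shown because both genes were higher in the XY groups; they run from 250 bases before to 50 bases after the start of the gene, on the plus strand of GRCm38.p6, from RefSeq. Capitals mark AGAACA, the half-site letters of the glucocorticoid receptor, in Mylk, and a CArG box, the motif of serum response factor, in Cnn2.
Mylk, chr16:34784700-34784999: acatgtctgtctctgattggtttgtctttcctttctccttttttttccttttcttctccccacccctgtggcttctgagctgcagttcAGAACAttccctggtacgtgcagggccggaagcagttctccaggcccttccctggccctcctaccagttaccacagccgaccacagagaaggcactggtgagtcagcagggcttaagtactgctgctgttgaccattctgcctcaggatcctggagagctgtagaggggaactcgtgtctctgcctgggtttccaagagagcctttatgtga
Cnn2, chr10:79988350-79988649: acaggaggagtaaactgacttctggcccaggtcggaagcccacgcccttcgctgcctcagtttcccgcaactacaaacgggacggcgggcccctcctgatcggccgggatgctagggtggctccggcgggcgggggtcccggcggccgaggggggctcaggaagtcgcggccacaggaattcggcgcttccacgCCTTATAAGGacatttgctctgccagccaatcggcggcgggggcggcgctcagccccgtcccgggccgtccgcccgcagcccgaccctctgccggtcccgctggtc
Promoters were found for 6 of the 10 autosomal genes. Both strands were searched for AGAACA, for GGTCA, the half-site letters of oestrogen and other nuclear receptors, and for the CArG box; the motifs do not overlap each other in these windows. Of 32851 promoters of this length, 19% held AGAACA, 40.5% GGTCA and 1.63% a CArG box. Mylk held 1 AGAACA and 1 GGTCA, and Cnn2 held 1 CArG box. GGTCA was also found once in the promoters of Tdo2 and Igfbp6 and in 1 of the 2 Syt2 promoters, and AGAACA once in the other Syt2 promoter. Fam20c held none of these letters. A match is a description of letters only.

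Tdo2 (chr3:81958414-81975728) encodes tryptophan 2,3-dioxygenase, the enzyme that opens the kynurenine route of tryptophan breakdown and is expressed by dentate granule cells. It was at 7.02, 5.80, 4.11, 4.66 and 4.91 CPM in XXF and at 8.47, 9.76 and 14.7 CPM in XYM. The groups were apart, and Tdo2 rose by 1.01 (SE 0.19, adjusted p = 0.0226), or 2.01-fold. The call was lost without XXF replicate 3, 4 or 5 or XYM replicate 3 or 4 (adjusted p up to 0.105). The side steps were 0.54 and 0.79 for chromosomes and 0.22 and 0.47 for gonad, all positive and none called. The sum of the chromosome steps was 1.33 in the fit's test (adjusted p = 0.0141). That sum contains the XYM and XXF means by which Tdo2 was picked, so it is no separate evidence. The sum of the gonad steps was not tested.

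Jph1 (chr1:16994940-17097889) encodes junctophilin 1, which ties the plasma membrane to the endoplasmic reticulum. It was at 44.5, 48.6, 37.3, 44.7 and 47.5 CPM in XXF and at 53.9, 57.3 and 65.4 CPM in XYM. It rose by 0.38 (SE 0.08, adjusted p = 0.0339), the smallest of the 6 called differences, and lost its call in 13 of 23 alternatives (adjusted p up to 0.163). Its side steps were 0.13 and 0.13 for chromosomes and 0.26 and 0.25 for gonad, none called.

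Grb7 (chr11:98446834-98455373), an adaptor gene for receptor tyrosine kinases, was near the lower limit of the table. It was at 2.13, 3.44, 2.69, 1.92 and 2.09 CPM in XXF and at 0.457, 0.865 and 1.36 CPM in XYM. It fell by 1.36 (SE 0.27, adjusted p = 0.0318), and the call was lost in 9 of 23 alternatives (adjusted p up to 0.129).

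Igfbp6 (chr15:102144186-102149512) encodes a binding protein that prefers insulin-like growth factor 2. It was at 11.1, 13.5, 12.3, 11.6 and 8.85 CPM in XXF and at 5.06, 5.96 and 8.62 CPM in XYM. The groups came within a small distance of each other, through XXF replicate 5 and XYM replicate 6. It fell by 0.87 (SE 0.17, adjusted p = 0.0318), with the call lost in 9 of 23 alternatives (adjusted p up to 0.127). All its steps were alike: −0.41 and −0.45 for chromosomes, −0.42 and −0.46 for gonad, none called.

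Kcnk3 (chr5:30588170-30625270) encodes TASK-1, a potassium leak channel that is closed by acid. It was at 14.9, 15.8, 15.1, 13.7 and 15.3 CPM in XXF and at 8.32, 11.4 and 12.3 CPM in XYM. It fell by 0.48 (SE 0.10, adjusted p = 0.0318), with the call lost in 8 of 23 alternatives (adjusted p up to 0.141). Its steps were −0.19 and −0.29 for chromosomes and −0.19 and −0.30 for gonad, none called. Thus for Grb7, Igfbp6 and Kcnk3 the XXM and XYF means lay between those of XXF and XYM, at 1.67 and 1.53 CPM, 8.32 and 8.38 CPM, and 12.2 and 12.2 CPM. No difference between XXM and XYF was called for them, where 0.501% of all genes were called. Picking genes by their difference between XYM and XXF favours middle values in XXM and XYF. Whether chromosome and gonad steps add up was not tested.

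Of the genes that missed the threshold, Fam20c (chr5:138755081-138810063), the Golgi kinase of secreted proteins, was at 35.2, 36.5, 34.5, 35.7 and 33.2 CPM in XXF and at 25.7, 26.9 and 32.1 CPM in XYM (−0.34, SE 0.07, adjusted p = 0.0582). Syt2 (chr1:134646681-134749417), a fast calcium sensor of transmitter release found in parvalbumin interneurons, was at 22.4, 23.2, 23, 21.2 and 21.9 CPM in XXF and at 7.96, 13.8 and 18.3 CPM in XYM (−0.72, SE 0.16, adjusted p = 0.0764). Its spread was much wider in XYM than in XXF. AI836003 (chr15:98167806-98170134) had a difference of −0.45 (SE 0.10, adjusted p = 0.0582). In all 3, XYM replicate 6 was the XYM library nearest to XXF. Without it their adjusted p fell below 0.05.

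**Figure D4:**
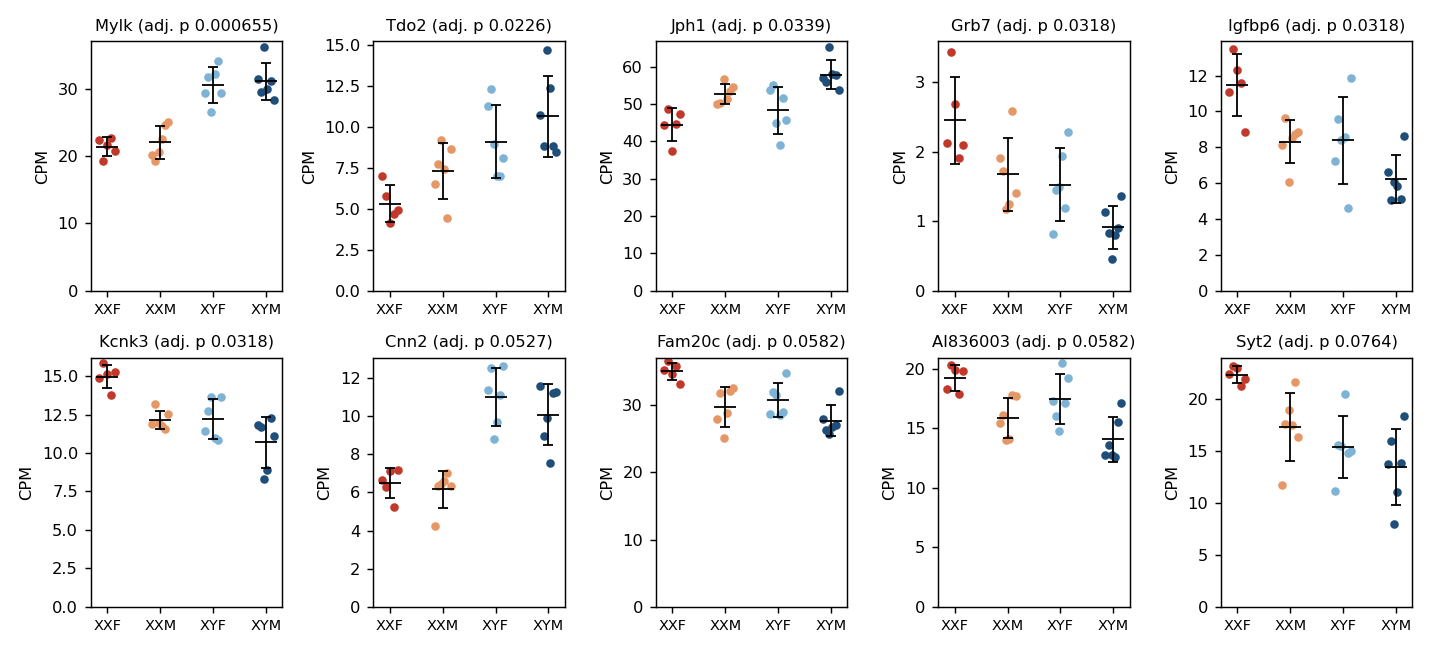
CPM per library of the 10 autosomal genes with the smallest p for XYM against XXF, in all 4 groups (XXF n = 5, others n = 6), with mean ± SD as bars. Mylk and Cnn2 have similar means in both XX groups, and in both XY groups. Jph1, Grb7, Igfbp6 and Kcnk3 take middle values in XXM and XYF, which picking genes by XYM against XXF favours.

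The remaining lists of 27 cell types and pathways held 326 measured autosomal genes, of which edgeR called 1, Mylk, while limma voom with sample quality weights called 4. An unadjusted p under 0.05 was reached by 49 of the 326 (15%), beside 10.1% of all autosomal genes. Counts over a list are given with its median log2 difference, to be read beside the median of −0.00 and the 49.9% of autosomal genes that were higher. In the list of actin genes and targets of serum response factor 9 of 13 were higher (median 0.06). That list includes Mylk and Cnn2 and was chosen with earlier results of these data known, so its count is no separate evidence. Flna, the X-linked gene of the actin crosslinker filamin A, was at 0.55 (SE 0.17, adjusted p = 0.252), while the smooth muscle gene Tagln was at −0.21.

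Steroid hormone receptors, through which gonadal hormones act, gave 0 calls by edgeR among 11 measured (4 higher, 7 lower, median −0.08, 3 at an unadjusted p under 0.05; 0 calls by DESeq2 and limma voom, 1 by limma voom with sample quality weights). Nr3c2, the mineralocorticoid receptor of the hippocampus, was at 138, 142, 126, 158 and 168 CPM in XXF and at 161, 171 and 192 CPM in XYM (0.24, SE 0.07, adjusted p = 0.219). Its groups overlapped. Esrra, the oestrogen-related receptor alpha gene, did not overlap, with 42.1 to 49.9 CPM in XXF and 35.1 to 41.3 CPM in XYM (−0.23, SE 0.06, adjusted p = 0.207). Esr1, the oestrogen receptor alpha gene, had a difference of 0.22, and Pgr, the progesterone receptor gene, −0.13. Steroid metabolism genes had 8 of 13 higher (median 0.01). Among them Cyp7b1, which hydroxylates neurosteroids, was at 0.22 (adjusted p = 0.42) and the sulfotransferase gene Sult1a1 at −0.37 (adjusted p = 0.399).

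Glucocorticoid-responsive genes were lower in 13 of 15 (median −0.19), with 6 at an unadjusted p under 0.05 and 0 called by edgeR, DESeq2 or limma voom. Cdkn1a, the cell cycle inhibitor p21, was at 6.98, 6.88, 8.5, 7.75 and 10.1 CPM in XXF and at 4.21 to 6.88 CPM in XYM (−0.53, SE 0.17, adjusted p = 0.291). Fkbp5, the widely used marker of glucocorticoid action, was at −0.01. Circadian clock genes were lower in 12 of 15 (median −0.15), with Dbp at −0.31, Cry1 at −0.26 and Hlf at −0.21, and immediate early genes in 11 of 16 (median −0.17), with Egr1 at −0.35 (adjusted p = 0.562). Cholesterol synthesis genes were lower in 17 of 19, by a small median of −0.07.

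Neuronal lists lay near 0. Glutamate receptor and scaffold genes were higher in 14 of 22 (median 0.05), with Gria1 and Grik2, of AMPA and kainate receptors, both at 0.18 (SE 0.06, adjusted p = 0.327 and 0.298). Genes of GABA signalling and interneurons were lower in 11 of 18 (median −0.03), with Vip at −0.34 (SE 0.11, adjusted p = 0.298) and Gabrd, of extrasynaptic receptors, at −0.31. Hippocampal subfield markers had a median of 0.02, with 6 of 18 at an unadjusted p under 0.05. Dsp and Prox1 of the dentate gyrus were at 0.47 (SE 0.14, adjusted p = 0.236) and 0.33, whereas the CA1 marker Wfs1 was at −0.33. In the thalamus list 7 of 11 were higher and 4 lower (median 0.04), with 3 at an unadjusted p under 0.05. Slc17a6, the vesicular glutamate transporter of thalamus, did not overlap (26.2 to 35.1 CPM in XXF, 10.9 to 25.8 CPM in XYM), at −0.66 (SE 0.24, adjusted p = 0.329). Ramp3 of that list was also lower, at −0.56 (adjusted p = 0.274), while Tcf7l2 was at 0.01. Neurotrophin genes had a median of 0.05 and adult neurogenesis genes of 0.00. Tubb3 of young neurons was at −0.25 (adjusted p = 0.258).

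Glial and vascular lists had no call by edgeR, DESeq2 or limma voom, while limma voom with sample quality weights called 1 microglial gene, Fcrls (adjusted p = 0.0367), with 3 astrocyte, 2 microglial and 1 endothelial gene at an unadjusted p under 0.05 by edgeR. Astrocyte genes were higher in 6 of 12 (median 0.00) and microglial genes in 7 of 14 (median −0.04). Fcrls and Siglech, both of microglia, lay on opposite sides, at −0.32 (SE 0.10, adjusted p = 0.274) and 0.22. Oligodendrocyte and myelin genes were lower in 10 of 12 (median −0.11), precursor genes in 8 of 10 (median −0.07) and endothelial genes in 9 of 12 (median −0.06). Mural cell genes were lower in 10 of 11 (median −0.16), a median that was 0.02 in limma voom with sample quality weights. Interferon response genes, which act downstream of Tlr7 in textbook terms, were higher in 10 of 17 (median 0.03) and called in 0 by edgeR, DESeq2 and limma voom, with 0 at an unadjusted p under 0.05. Oasl2 was at 0.36 (SE 0.25, adjusted p = 0.673) and reached 9.95 CPM in XYM replicate 1 against at most 4.85 in the other XYM libraries. Interferon-inducible GTPases had a median of −0.03, complement genes −0.01 and genes of MHC class I −0.12, with 11 of 13 lower.

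Markers of tissue around the hippocampus differed widely between animals of a group. The summed choroid plexus list ran from 88.0 to 2006 CPM in XXF and from 72.7 to 2814 CPM in XYM, with a median difference of 0.24 that became −1.34 without XYM replicate 1. The ependymal list, of ciliated cells lining the ventricles, was higher in 6 of 6 (median 0.51), and none passed the test by edgeR, DESeq2 or limma voom. Ccdc153, the 1 member with an unadjusted p under 0.05, was at 0.67 (SE 0.27, adjusted p = 0.391). Meningeal and fibroblast genes were lower in 8 of 11 (median −0.15). Haemoglobin and other blood genes were lower in 4 of 4 (median −0.42), with summed levels of 80.5 to 204 CPM in XXF and 90.2 to 234 CPM in XYM. Whether these tissues contribute to the autosomal differences was not tested beyond leaving out both choroid-rich libraries, which left 2 autosomal calls, both among the 6, and a choroid plexus score as covariate, which gave 10 calls that include all 6.

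**Figure D5:**
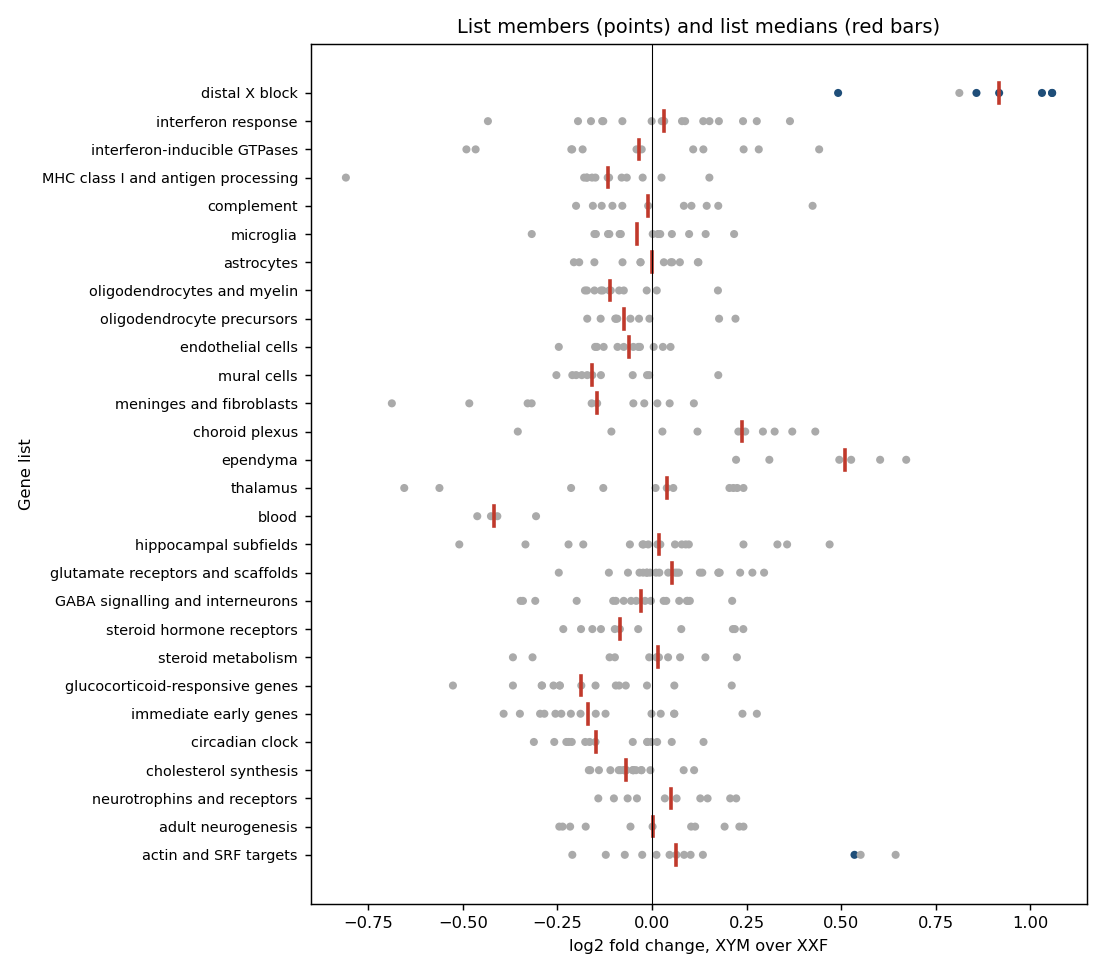
Log2 fold change of XYM over XXF for each measured member of 28 gene lists. Points are genes, blue where the adjusted p was under 0.05, and red bars are list medians. The distal X block stands at 0.92, and the medians of the other lists lie between −0.42 (blood) and 0.51 (ependyma).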

How the data were processed

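Per the labels' protocols, RNA from frozen hippocampus was depleted of ribosomal RNA and made into strand-specific libraries from 500 ng. Per the submitters' processing notes the build was mm10 and DESeq was used; which aligner, counter and strand setting were used is not given in these sources. The estimated counts deposited by the authors, raw values per gene per the file headers, were rounded to whole numbers. A header states that a gene was retained where all libraries of at least 1 group reached 20. The log2 values deposited by the authors are log2 counts shifted by a constant for each library, less a per-gene baseline (rebuilt to within 1.33e-06), and served for alternatives only. Unmatched value columns numbered 0.

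Counts were scaled by the trimmed mean of M-values; filterByExpr removed no gene. A model with 1 mean per group over 23 libraries, sharing 1 estimate of the spread, was fitted in edgeR (version 4.0.16, R 4.3.3) and tested by quasi-likelihood, 2-sided, with Benjamini-Hochberg adjustment over 13766 genes. Standard errors, which the test does not give, were approximated by dividing the size of the log2 fold change by the root of F. Alternatives used DESeq2 (version 1.42.0) and limma (version 3.58.1). The fit was tested on simulated data with 200 changed genes. It called 191 genes, 6.28% of them false, and recovered 85% of 1.5-fold and 94% of 2-fold changes. No choroid-rich or other outlying library was simulated, so the dependence on single animals was not covered. Libraries are separate animals by their animal numbers; replicate numbers follow accession order and only name them. Levels of X and Y copies were divided by the length of 1 protein-coding transcript each, from GENCODE for GRCm38.

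Named genes were Xist and the Y genes, X–Y partners, escape genes, the distal X block with its flanks, the 10 autosomal genes with the smallest p, any called X-linked gene outside the lists, and examples with the smallest p from each of 32 lists. Flna, Elk1, Gpr34 and other list members named beside the examples were chosen after their values were seen. The single-gene values of some list members are left out of the text. The comparison and lists were chosen with earlier results of these data known.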

Additional observations from a re-analysis of the deposited data

Results flagged for a closer look

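For each named gene the highest and lowest library of each group were compared with the rest of that group by the ratio of the gap to the range. Of 172 groups of values examined, 16 stood out, where chance gives about 1 in 20, or 9. XYM replicate 1 gave 6 and XXF replicate 1 gave 3 of them. Those libraries were high in the choroid plexus genes Slc13a4 (35.6 CPM in XXF replicate 1, 30.1 CPM in XYM replicate 1) and Otx2 (8.84 and 14 CPM). Bgn was high in XXF replicate 1 (24.5 CPM). XYM replicate 1 was also high in the interferon-induced gene Oasl2 (9.95 CPM), the MHC class I gene H2-Q7 (1.81 CPM), whose reads may be shared with near-identical copies, and the haemoglobin genes Hba-a1 (104 CPM) and Hba-a2 (28.7 CPM), which are near-identical to each other. Hba-a1 was low in XXF replicate 5 (42.4 CPM).

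XYM replicate 3 was above its group in Jph1 (65.4 CPM against at most 58.0 in the others) and in the ciliary gene Ccdc153 (10.01 CPM). XYM replicate 6 was high in Fam20c (32.1 CPM against at most 28) and Erdr1 (42.8 CPM against at most 19.9). In XXF, replicate 4 was low in the endothelial gene Esam (12.8 CPM) and replicate 2 high in Cyp7b1 (26.5 CPM).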

How the results depend on the processing

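All of the 88 named genes were refitted under 23 alternatives. Of the 18 called genes, 11 kept call and direction in every one, Mylk and Eif2s3x among them. Xist lost its call under the limma trend fit of the deposited log2 values (adjusted p = 0.961), where the gene mean is no measure of abundance, and DESeq2 gave it no adjusted p. All genes called numbered 18, against 54 with DESeq2 and 123 with limma voom with sample quality weights, and 12 to 36 when 1 library was left out. Autosomal calls numbered 6, against 40 with DESeq2, 104 with sample quality weights, 11 with the limma trend fit, 10 with limma without a trend, 10 with a choroid plexus covariate, 2 without both choroid-rich libraries, and 1 to 23 when 1 library was left out. X-linked calls numbered 8, against 15 with sample quality weights, and 7 to 9 when 1 library was left out. The filter of at least 1 CPM in at least 5 libraries removed no gene. The cause of these changes was not tested.

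Signs changed for 5 named genes and 2 summed pairs. With sample quality weights Usp9x was −0.00934, Uba1 0.0043, Mid1 −0.013, Otx2 −0.049 and Slc13a4 0.13. Leaving out 1 library gave −0.018 to 0.051 for Usp9x, −0.025 to 0.019 for Uba1, −0.074 to 0.10 for Mid1, −0.95 (without XYM replicate 1) to 1.60 for Otx2 and −1.24 to 0.69 (without XXF replicate 1) for Slc13a4. Mid1 was −0.0037 in both limma fits of the log2 values, and Usp9x −0.00444 without both choroid-rich libraries. The Ddx3x plus Ddx3y difference ran from −1.25 to 2.76 CPM per kilobase when 1 library was left out, and that of Eif2s3x plus Eif2s3y was −14.4 with coding length. No paired analysis was possible because the libraries carry animal numbers only and share no replicate number across groups. Alternatives on leaving out both choroid-rich libraries, limma without a trend, list counts by tool and the summed pairs were chosen after seeing the data.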
